A study of Arabidopsis thaliana with 16 samples.

Results

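The root hair, a tubular outgrowth of a root epidermal cell, is represented here by 9 Arabidopsis thaliana genes. They were chosen by their identifiers as known root hair genes, with earlier results of these data at hand, and make up 9 of the 27444 protein-coding nuclear genes of the annotation. RHD6, RSL4 and RSL2 encode regulators, and EXPA7, EXPA18, COBL9, LRX1, PRP1 and PRP3 encode proteins of the cell wall or of its assembly. Their RNA was read from 3 tables of genes that differed from the wild type Col, and their chromatin from 6 lists of peaks, each searched in the gene and 1000 bp to either side.

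Root hairs begin when the basic helix-loop-helix (bHLH) factor RHD6 acts in a hair-forming epidermal cell, and its relatives RSL4 and RSL2 then promote the growth of the hair from its tip. During this growth the wall is loosened by expansins and built up with extensin-like and proline-rich proteins. The hormone ethylene promotes hair formation and growth, and EIN3, the main transcription factor of ethylene signalling, has been reported to bind RHD6 and to act with it on RSL4.

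The study used whole seedlings, 3 days old and grown in darkness at 24 °C, after 4 h in air or in ethylene at 10 ppm. RNA came from 3 transgenic lines in the ein3-1 eil1-1 background, in which EIN3 and the related EIL1 are both mutated. Each line had 2 libraries, and all were in air. By their names, EIN2C-EIN3DB joins the carboxyl-terminal part of the ethylene signalling protein EIN2 to the DNA-binding domain of EIN3, EIN2C-EIN3DB-K245N carries a substitution in it, and EIN2-S645A carries a substitution in EIN2. An antibody to EIN2 served for chromatin immunoprecipitation (ChIP) from EIN2C-EIN3DB in Col-0, with 1 library titled air and 1 titled ethylene, and from EIN2C-EIN3DB in ein3-1 eil1-1, with 2 air and 2 ethylene libraries. Input was sequenced as 4 libraries. Some labels conflict with the titles: ethylene is given as the agent of the ChIP and input of Col-0 titled air, ein3-1 eil1-1 is given as the genotype of the ethylene input of Col-0, and the S645A line is spelled in several ways. Groups follow the titles. The sources used here do not name the promoter of each transgene or the number of independent transformants.

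Each RNA table gives 1 level per line in FPKM (fragments counted per length of transcript and per depth of library), with both libraries pooled, so no spread between replicates can be given and the calls are those of the authors. A gene is listed in the authors' deposited tables only if its fold reached 2 and its q-value lay under 0.05. Its level also had to reach 1 FPKM, in the line or in Col, since genes at 0 FPKM in the line are listed. A gene without a row was called neither higher nor lower, and whether it was unchanged, too low or not tested cannot be told from the tables. All 3 tables share Col, whose treatment the sources used here do not state, and they were scaled separately. No untransformed ein3-1 eil1-1 library was analysed here, so an effect of a transgene and one of the double mutation cannot be told apart. In whole seedlings, more cells of a type and more RNA per cell cannot be told apart either.

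Of the 9 genes, 5 were listed, all as higher than Col. In the authors' deposited table for EIN2C-EIN3DB, RHD6, EXPA7, EXPA18, LRX1 and PRP3 were higher and none was lower, that is 5 of 9 (55.6%) against 9.93% of all protein-coding nuclear genes higher and 9.7% lower. In the table for EIN2C-EIN3DB-K245N, LRX1 and PRP3 were higher, 2 of 9 (22.2%) against 6.41% of all genes higher and 6.33% lower in the authors' deposited table. In that for EIN2-S645A the same genes, LRX1 and PRP3, were higher, 2 of 9 (22.2%) against 11.8% of all genes higher and 13.9% lower in the authors' deposited table. The all-gene shares count genes of every level of expression, silent ones included. For RHD6, EXPA7, EXPA18 and LRX1 the fold exceeded the FPKM wherever they were listed, so their Col level was under 1 FPKM. Such a gene reaches the level limit only through the line and could be listed only as higher. The lack of lower calls among them is thus no result. Since the 9 genes were chosen with earlier results of these data known, their shares higher are descriptive and test no excess over all genes. RSL4, RSL2, COBL9 and PRP1 had no row in any of the 3 tables.

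**Figure D1:**
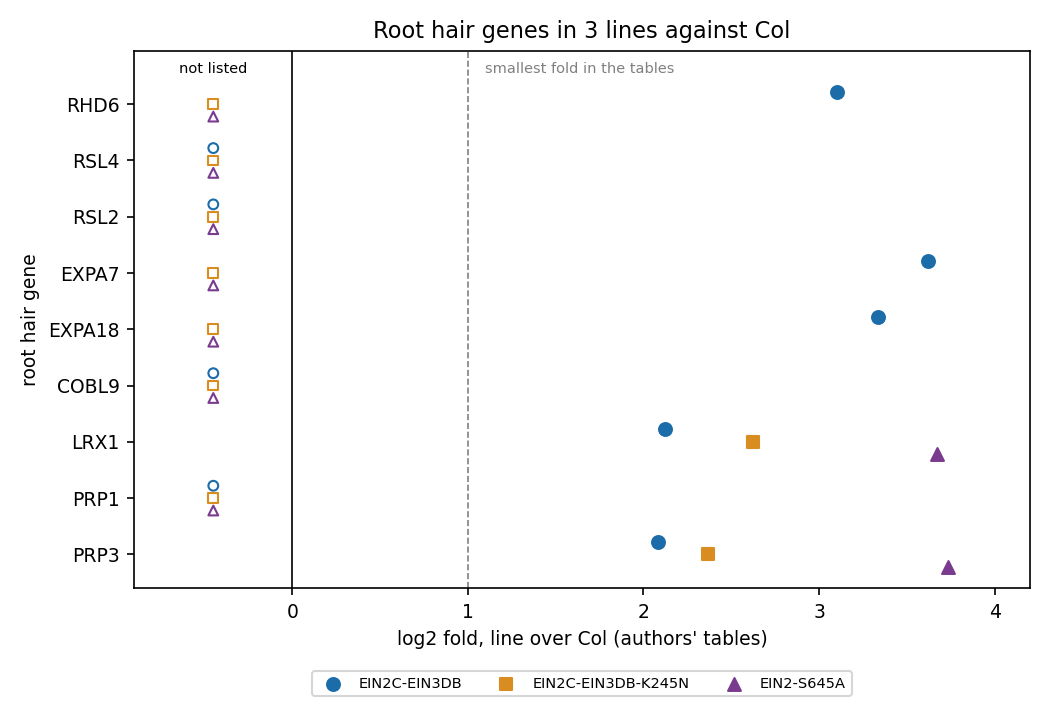
Log2 fold of each of the 9 root hair genes over Col (horizontal axis) in the 3 lines (colours), from the authors' pooled values, so that there are no error bars. LRX1 and PRP3 have a point in every line, RHD6, EXPA7 and EXPA18 have one in EIN2C-EIN3DB, and open symbols at the left mark genes with no row, which for RSL4, RSL2, COBL9 and PRP1 is every line.

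Among the regulators, RHD6 (AT1G66470, TAIR10 chr1:24795214-24796988), the factor that starts hair formation, was listed at 4.42 FPKM in EIN2C-EIN3DB. Its log2 fold over Col in the authors' deposited table was 3.10 (a fold of 8.58), with a Cuffdiff test statistic of 3.44, a p-value of 0.00825 and a q-value of 0.0183. Its level was low for a gene called higher: 7.58% of the 2797 genes called higher in the authors' deposited table had a lower FPKM, while 10.8% had a larger fold. This fold is a ratio over a Col level under 1 FPKM. A smaller q-value than that of RHD6 was held by 89.3% of the genes called higher in EIN2C-EIN3DB. RSL4 and RSL2, which lie downstream of RHD6 in hair growth, had no row there or in the other tables. The higher RHD6 call was thus not accompanied by a call of either relative.

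EXPA7 (AT1G12560, TAIR10 chr1:4276519-4277899) and EXPA18 (AT1G62980, TAIR10 chr1:23331676-23333110) encode alpha-expansins of hair cells, proteins that loosen the wall where the hair emerges and grows. EXPA7 was listed at 6.66 FPKM in EIN2C-EIN3DB, with a log2 fold of 3.62 (a fold of 12.3) and a q-value of 0.0255 in the authors' deposited table. EXPA18 was listed at 4.79 FPKM, with a log2 fold of 3.34 (a fold of 10.1) and a q-value of 0.0447 in the authors' deposited table. Both folds were among the larger ones, with 8.33% and 9.30% of the genes called higher above them. Each fold exceeds the FPKM, so it is a ratio over a Col level under 1 FPKM, and its rank is uncertain. Both calls were also close to the q-value limit: 92.6% and 98.7% of the genes called higher in the authors' deposited table had a smaller q-value. Neither expansin had a row in the tables for the other 2 lines. A difference between the lines was not tested for RHD6, EXPA7 or EXPA18, and at these low levels a missing row is no measure of an unchanged level.

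LRX1 (AT1G12040, TAIR10 chr1:4070124-4072567) encodes a chimeric wall protein, a leucine-rich repeat joined to an extensin domain, which hairs need to keep their shape. It was listed as higher in each line at a low level, 2.30 FPKM in EIN2C-EIN3DB, 2.46 FPKM in EIN2C-EIN3DB-K245N and 5.24 FPKM in EIN2-S645A in the authors' deposited tables. The log2 folds over Col in the authors' deposited tables were 2.12, 2.63 and 3.67, which are folds of 4.35, 6.17 and 12.7. The q-values were 0.0165, 0.0411 and 0.0167 in the authors' deposited tables. A smaller q-value was held by 88.9%, 96.5% and 87.9% of the genes called higher, so the call in EIN2C-EIN3DB-K245N was close to the limit. Of the genes called higher in each table, 1.89%, 0.941% and 2.50% had a lower FPKM, so LRX1 was among the least abundant genes with a call. Its folds are ratios over a Col level under 1 FPKM.

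PRP3 (AT3G62680, TAIR10 chr3:23182722-23183994), a proline-rich structural protein of the root hair wall, was the most abundant of the 5 in each table that lists it. Its level was 20.7 FPKM in EIN2C-EIN3DB, 19.0 FPKM in EIN2C-EIN3DB-K245N and 50.4 FPKM in EIN2-S645A in the authors' deposited tables. Its log2 folds over Col were 2.08, 2.37 and 3.73 in the authors' deposited tables, which are folds of 4.24, 5.16 and 13.3. PRP3 was the only one of the 9 with a Cuffdiff p-value at the smallest value the tables hold, 5e-05. It was there in all 3 lines, with q-values of 0.000185, 0.000315 and 0.000224 in the authors' deposited tables. That p-value is common: 67.0%, 55.4% and 56.0% of all listed genes held it in the same order. Its level lay near the middle of the genes called higher, of which 41.6%, 39.5% and 45.1% had a lower FPKM.

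The order of fold within the table for EIN2C-EIN3DB was EXPA7, EXPA18, RHD6, LRX1 and PRP3, and the order of level was PRP3, EXPA7, EXPA18, RHD6 and LRX1. With 1 pooled value per line, whether neighbours in these orders differ beyond their spread could not be judged. The median log2 fold of the 5 was 3.10, beside 1.56 for all genes called higher in the authors' deposited table. These medians compare genes of unlike level. RHD6, EXPA7, EXPA18 and LRX1 lay at 2.30 to 6.66 FPKM, while all genes called higher had a median of 28.6 FPKM. A gene at a low Col level can need a larger fold to pass the q-value limit, which was not tested here. With levels so unlike, the larger median is no result about the hair genes. PRP3, at 20.7 FPKM, had a log2 fold of 2.08. For LRX1 and PRP3 the median was 2.50 in EIN2C-EIN3DB-K245N and 3.70 in EIN2-S645A, beside 1.48 and 1.85 for all genes called higher in the authors' deposited tables. The genes called higher in all 3 tables also had their largest median in EIN2-S645A: over these 919 genes the median log2 fold was 1.81, 1.65 and 2.38 in EIN2C-EIN3DB, EIN2C-EIN3DB-K245N and EIN2-S645A in the authors' deposited tables. The larger folds of LRX1 and PRP3 in EIN2-S645A are read against that.

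**Figure D2:**
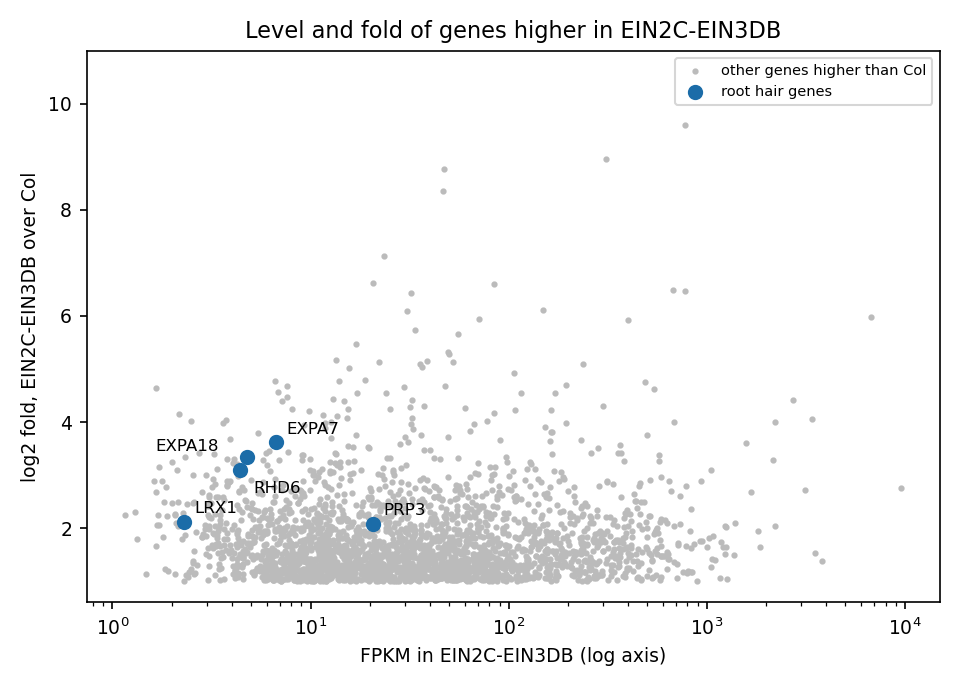
Level in the line (FPKM, log axis) against log2 fold over Col for the 5 root hair genes (large points) and the other genes called higher with a finite fold (grey) in EIN2C-EIN3DB, from the authors' deposited table. RHD6, EXPA7, EXPA18 and LRX1 lie at the low-level side with 2.30 to 6.66 FPKM, and PRP3 lies to their right at 20.7 FPKM.

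LRX1 and PRP3 had similar log2 folds. The distance between them over the 3 log2 folds (Euclidean) was 0.268, and among the 1764 protein-coding nuclear genes with a finite fold in all 3 tables PRP3 was the second nearest gene to LRX1 and LRX1 the nearest to PRP3. The nearest to LRX1 was AT3G03180 at 0.147, and the third was AT4G30660 at 0.408. After LRX1, the nearest to PRP3 were AT5G64400 at 0.344 and AT3G03180 at 0.359. These distances rest on 3 folds that share Col, and they describe these values only.

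The close relatives of the wall genes, gathered after the tables had been seen, did not all have the calls of the hair genes. LRX2, which acts with LRX1 in hairs, was called lower in all 3 lines, with log2 folds of -2.66, -1.69 and -1.72 in the authors' deposited tables for EIN2C-EIN3DB, EIN2C-EIN3DB-K245N and EIN2-S645A. Its level was 5.66, 8.31 and 8.40 FPKM in the authors' deposited tables, above that of LRX1 in each table. PRP4, a proline-rich protein not confined to hairs, was called higher in EIN2C-EIN3DB-K245N and EIN2-S645A, with log2 folds of 1.33 and 1.21 and levels of 1641 and 1554 FPKM in the authors' deposited tables. PRP1 and PRP2 had no row. COBL9, a COBRA-like protein anchored at the plasma membrane and needed for hair growth from the tip, had no row. Of the other 10 COBRA family genes, COBL5 and COBL4 were called higher in EIN2C-EIN3DB with log2 folds of 3.18 and 1.03 in the authors' deposited table. COBL4 was also called higher in EIN2C-EIN3DB-K245N at 1.22, and COBL1 was called lower in EIN2-S645A at -1.65, in the authors' deposited tables. Of all genes, 9.93% were higher in EIN2C-EIN3DB, 6.41% higher in EIN2C-EIN3DB-K245N and 13.9% lower in EIN2-S645A.

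The other 21 alpha-expansins listed by name in the annotation were called in both directions. In EIN2C-EIN3DB 6 were higher and 2 lower, in EIN2C-EIN3DB-K245N 5 were higher and 3 lower, and in EIN2-S645A 5 were higher and 1 lower in the authors' deposited tables. Of all genes, 9.93%, 6.41% and 11.8% were higher and 9.7%, 6.33% and 13.9% lower in the same order. EXPA1, EXPA5 and EXPA15 were higher in all 3, and EXPA1 stood at 162, 148 and 272 FPKM in the authors' deposited tables. In EIN2C-EIN3DB the levels of EXPA7 and EXPA18 thus lay far below that of this relative, FPKM being a level per length.

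The pathway was read more widely from 52 other root hair genes in 4 lists: patterning of the epidermis (11 genes), bHLH regulators (6), tip growth (18) and wall (17). The authors' deposited tables called 5 of the 52 higher and 3 lower in EIN2C-EIN3DB (9.62% and 5.77%), 5 higher and 1 lower in EIN2C-EIN3DB-K245N (9.62% and 1.92%), and 13 higher and 4 lower in EIN2-S645A (25.0% and 7.69%). The shares higher stand beside 9.93%, 6.41% and 11.8% of all genes, so in EIN2C-EIN3DB that of the wider group was near the background. The median log2 fold of the listed genes was 1.82, 1.95 and 1.75.

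The wall list held most of the calls. In EIN2-S645A 9 of its 17 genes were called higher and 1 lower, in EIN2C-EIN3DB 4 were higher and 2 lower, and in EIN2C-EIN3DB-K245N 3 were higher and 1 lower in the authors' deposited tables. The shares higher were 52.9%, 23.5% and 17.6% in that order, beside 11.8%, 9.93% and 6.41% of all genes. Of all genes, 13.9%, 9.7% and 6.33% were lower. For PRPL1, RHS19 and AT4G08400 of this list the fold in EIN2-S645A exceeded the FPKM, so their Col level was under 1 FPKM. Such genes could be listed only as higher, and the balance of higher and lower calls is read with that limit. RHS13, an extensin-family protein, was called at log2 folds of 2.47 in EIN2C-EIN3DB and 5.50 in EIN2-S645A in the authors' deposited tables, with levels of 8.64 and 54.7 FPKM. PRPL1, a proline-rich-like protein of hairs, stood at log2 folds of 3.08 and 5.18 in the authors' deposited tables for the same lines, with levels of 10.3 and 34.2 FPKM. RHS13 and PRPL1 had no row for EIN2C-EIN3DB-K245N.

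RHS19, a wall peroxidase, and AGP3, an arabinogalactan protein, were higher in all 3 tables, as LRX1 and PRP3 were. The log2 folds of RHS19 were 2.48, 3.18 and 4.53 in the authors' deposited tables for EIN2C-EIN3DB, EIN2C-EIN3DB-K245N and EIN2-S645A. Those of AGP3 were 1.96, 2.34 and 2.94 in the authors' deposited tables. AT4G08400, which has no name in the annotation, was higher in EIN2-S645A at a log2 fold of 3.65 in the authors' deposited table. Among the extensins, EXT6 was higher at 1.73 in the same line, and EXT10 at 1.09 in EIN2C-EIN3DB-K245N and 1.85 in EIN2-S645A, per the authors' deposited tables. Extensin genes are repetitive and alike, so reads can be shared between them and these values are uncertain. XTH14, an enzyme that cuts and rejoins xyloglucan, was higher in EIN2-S645A at 1.75 in the authors' deposited table.

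Of the tip growth genes, 1 of 18 was higher in EIN2C-EIN3DB, 2 were higher in EIN2C-EIN3DB-K245N, and 3 were higher and 3 lower in EIN2-S645A in the authors' deposited tables, beside 9.93%, 6.41% and 11.8% of all genes higher. RHD4, a phosphoinositide phosphatase at the tip, was higher in all 3 with log2 folds of 1.69, 1.72 and 2.14 in the authors' deposited tables. AHA7, a plasma membrane proton pump, was higher in EIN2C-EIN3DB-K245N at 2.18 and in EIN2-S645A at 2.23 in the authors' deposited tables, at 1.73 and 1.85 FPKM. In EIN2-S645A ROP2 was also higher, at 1.47. The lower tip growth genes in that line were RHD2 at -1.62, FER at -1.41 and MRH1 at -1.66, where 13.9% of all genes were lower. ROP2, RHD2, FER and MRH1 were named after their values were seen. Of the patterning genes only JKD, which relays positional cues to the epidermis, had a row, a log2 fold of -1.95 in the authors' deposited table for EIN2C-EIN3DB. Of the 6 other bHLH regulators 1 had a row, LRL2, named here after its value was seen, with a log2 fold of 1.03 in EIN2-S645A in the authors' deposited table.

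**Figure D3:**
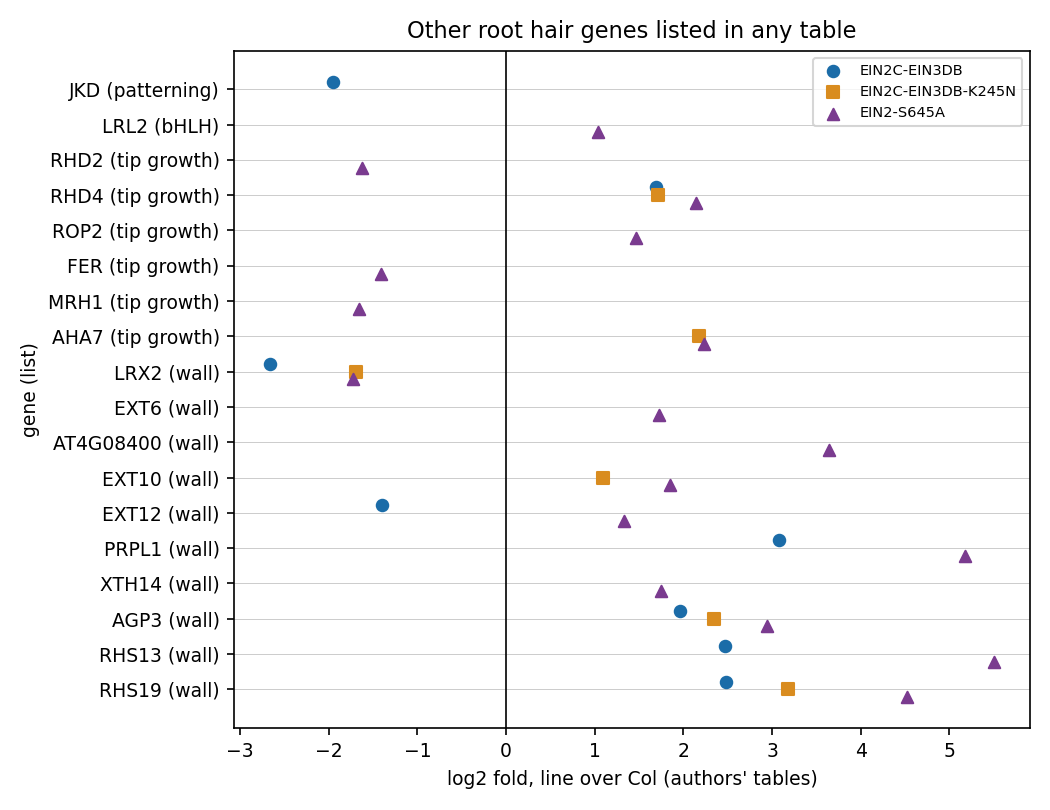
Log2 fold over Col (horizontal axis) of the 18 genes among the 52 other root hair genes that are listed in any of the 3 lines (colours), from the authors' pooled values with no error bars. RHS13 and PRPL1 reach 5.50 and 5.18 in EIN2-S645A, while LRX2 lies below 0 in all 3 lines.

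Markers of other root cells and of guard cells stand beside these calls. Of 8 endodermis markers, 2 were higher and 1 lower in EIN2C-EIN3DB, 5 were higher in EIN2C-EIN3DB-K245N and 6 were higher in EIN2-S645A in the authors' deposited tables. These shares higher were 25.0%, 62.5% and 75.0%, beside 9.93%, 6.41% and 11.8% of all genes. The listed endodermis markers summed to 297, 866 and 1446 FPKM in the authors' deposited tables, a sum over different genes in each. CASP1 and CASP4, membrane proteins that lay down the Casparian strip, were higher in all 3 lines, CASP1 at log2 folds of 1.24, 2.29 and 2.54 and CASP4 at 2.19, 3.34 and 2.96 in the authors' deposited tables. CASP2 and ESB1, of the same barrier, were higher in EIN2C-EIN3DB-K245N at 1.67 and 1.17 and in EIN2-S645A at 2.37 and 1.63 in the authors' deposited tables.

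Of 7 nutrient uptake genes of roots, 2 were higher in each of the authors' deposited tables. The counts for this and the following small lists stand beside the shares of all genes. These were 9.93%, 6.41% and 11.8% higher and 9.7%, 6.33% and 13.9% lower in EIN2C-EIN3DB, EIN2C-EIN3DB-K245N and EIN2-S645A. PHT1;1, a phosphate transporter with close copies that can share its reads, had log2 folds of 3.83, 4.21 and 4.30, and AMT1;1, an ammonium transporter, had 1.85, 1.33 and 2.24 in the authors' deposited tables. Of 7 root cap and meristem markers 2 were higher in EIN2C-EIN3DB and none was listed for the other lines in the authors' deposited tables. Of 5 stele markers, 1 was higher and 1 lower in EIN2C-EIN3DB and 1 was lower in EIN2-S645A, AHK4 being the lower one in both at -1.33 and -2.61 in the authors' deposited tables. Of 6 guard cell markers, 1 was higher and 1 lower in EIN2C-EIN3DB, 2 were lower in EIN2C-EIN3DB-K245N and 1 was lower in EIN2-S645A in the authors' deposited tables. MYB60, a guard cell factor, was lower in all 3 at -1.43, -2.29 and -1.90, and EPF2 was listed at 0 in EIN2C-EIN3DB-K245N, by the authors' deposited tables. The higher stele marker was PHO1 at 1.02 and the higher guard cell marker EPF1 at 2.41, both in EIN2C-EIN3DB in the authors' deposited table. Part of the endodermis and uptake lists was thus called higher beside the hair genes. No root cap, meristem or stele marker was higher in EIN2C-EIN3DB-K245N or EIN2-S645A. In lists of 7 and 5 genes, beside 6.41% and 11.8% of all genes higher, that absence is near the background and is no result. The part of other root cells in the calls of the hair genes was not tested.

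**Figure D4:**
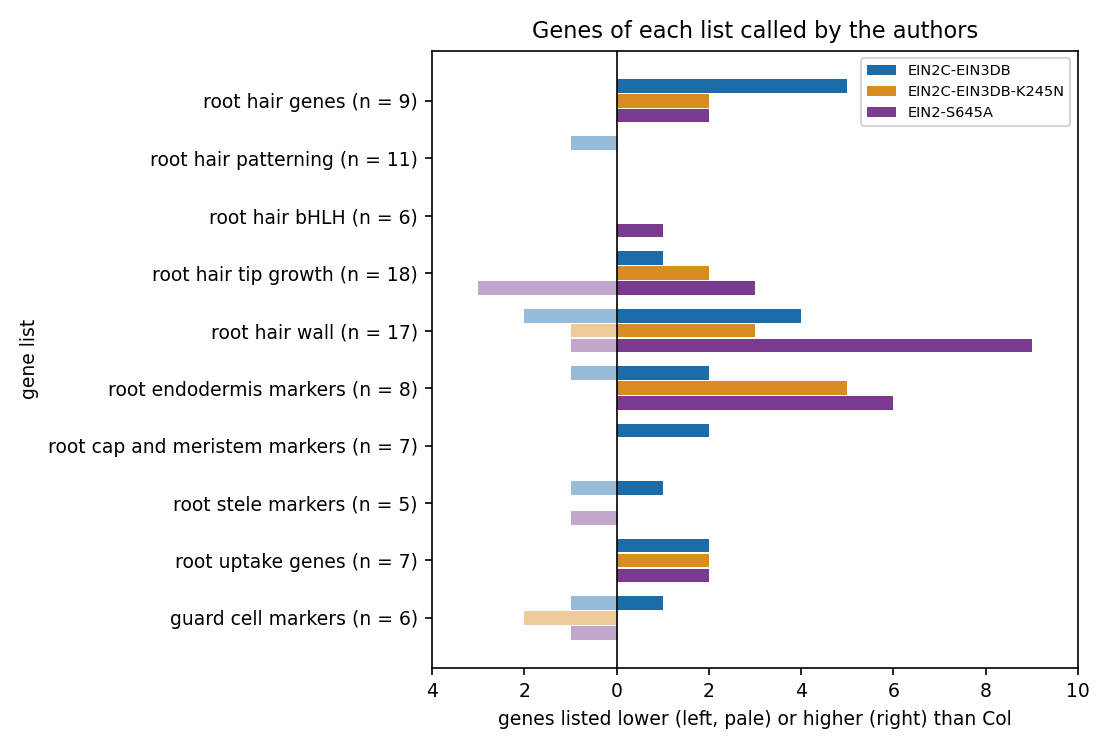
Number of genes called higher than Col (bars to the right) and lower (pale bars to the left) in each list (rows) and line (colours), from the authors' deposited tables. In EIN2C-EIN3DB 5 of the 9 root hair genes are higher, and in EIN2-S645A 9 of 17 other wall genes and 6 of 8 endodermis markers are higher. Of all genes, 9.93% are higher in EIN2C-EIN3DB and 11.8% in EIN2-S645A. The lists were chosen with earlier results of these data known, so the bars test no excess.

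Calls were also read for the 18 genes next to the 9 on either side. In EIN2C-EIN3DB 3 were higher and 1 lower, in EIN2C-EIN3DB-K245N 1 was higher, and in EIN2-S645A 2 were higher and 1 lower in the authors' deposited tables, where 9.93%, 6.41% and 11.8% of all genes were higher. AT1G66480, next to RHD6, was higher at log2 folds of 2.17 in EIN2C-EIN3DB and 3.07 in EIN2-S645A in the authors' deposited tables. AT1G12050, next to LRX1, was higher at 1.56 in EIN2C-EIN3DB and 1.69 in EIN2C-EIN3DB-K245N, by the authors' deposited tables. Around RSL4, STZ was higher in EIN2C-EIN3DB at 1.43 and AT1G27750 lower in EIN2-S645A at -1.25 in the authors' deposited tables. ATL5, next to PRP3, was lower in EIN2C-EIN3DB at -1.16, and AT5G49280, next to COBL9, was higher in EIN2-S645A at 1.23 in the authors' deposited tables. EXPA7 and EXPA18 are each overlapped by another annotated gene, AT1G12570 and AT1G62978, and strand-specific counting is not stated, so their FPKM could include reads of the other gene.

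The ChIP peaks ask where the EIN2 antibody pulled down chromatin in seedlings with EIN2C-EIN3DB. None of the 9 genes had a peak in the gene or within 1000 bp in any of the 6 libraries, 0 of 9, which allows a share of up to 33.3%. All protein-coding nuclear genes had such a peak in 3.1% of cases in Col-0 titled air, 4.82% in Col-0 ethylene, 0.681% and 0.736% in the ein3-1 eil1-1 air replicates 1 and 2, and 0.554% and 0.565% in the ein3-1 eil1-1 ethylene replicates 1 and 2. At the largest of these shares 0.434 of 9 genes would have a peak, so a count of 0 is near the background and is no result about the hair genes. The lists held 841 and 1510 peaks in the Col-0 libraries and at most 275 in the others, from 3743192 to 10515608 tags kept per library.

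The nearest peaks lay several kb or more away. The closest to any of the 9 was 7.78 kb from EXPA7 in Col-0 ethylene, with a fold enrichment over input of 2.55 and a −log10 q of 1.23. PRP3 had a peak at 8.60 kb in ein3-1 eil1-1 air replicate 1, with a fold enrichment of 2.16 and a −log10 q of 0.132, but in replicate 2 its nearest peak was 1039 kb away. RSL4 had a peak at 19.1 kb in Col-0 ethylene.

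LRX1 had its nearest peak in the same region in 4 libraries. A peak 16.7 to 17.0 kb from the gene was present in Col-0 titled air, in Col-0 ethylene and in both ein3-1 eil1-1 air libraries, and that of Col-0 ethylene (TAIR10 chr1:4089498-4090573) overlapped each of the other 3. The peak of Col-0 titled air ended at 4089541, before those of the ein3-1 eil1-1 air replicates began at 4089585 and 4089693, so it overlapped neither. The fold enrichment was 5.32 in Col-0 ethylene, 3.60 in Col-0 titled air, and 2.71 and 2.58 in the air replicates 1 and 2 of ein3-1 eil1-1. The −log10 q was 8.77, 2.42, 1.80 and 1.48 in the same order. In the ein3-1 eil1-1 ethylene libraries the nearest peak to LRX1 was 33.7 kb away in replicate 1 and 882 kb away in replicate 2. Which gene, if any, the region belongs to was not tested. COBL9 had its nearest peak at 37.3 to 41.3 kb in 5 of the 6 libraries and at 179 kb in ein3-1 eil1-1 ethylene replicate 1. None of those 5 peaks overlapped another, and their −log10 q lay between 0.777 and 2.53.

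The median distance from the 9 genes to the nearest peak was 51.2 kb in Col-0 titled air and 37.7 kb in Col-0 ethylene, beside 57.1 and 39.1 kb for all genes. In ein3-1 eil1-1 it was 187 and 206 kb in air, beside 265 and 253 kb for all genes. In ethylene it was 179 kb in replicate 1 and 676 kb in replicate 2, beside 337 and 292 kb, so the replicates lay on opposite sides of the all-gene value. Of the 52 other root hair genes, 6 had a peak in at least 1 library. WER and ETC1, which encode MYB factors that act in epidermal patterning, had one in Col-0 ethylene, at 465 and 654 bp, and CSLD3, EXT12 and SHV3 had one in Col-0 titled air. MRH6 had one in ein3-1 eil1-1 air replicate 2. These 6 genes were named after their peaks were seen, and of all genes 7.84% had a peak in at least 1 library.

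**Figure D5:**
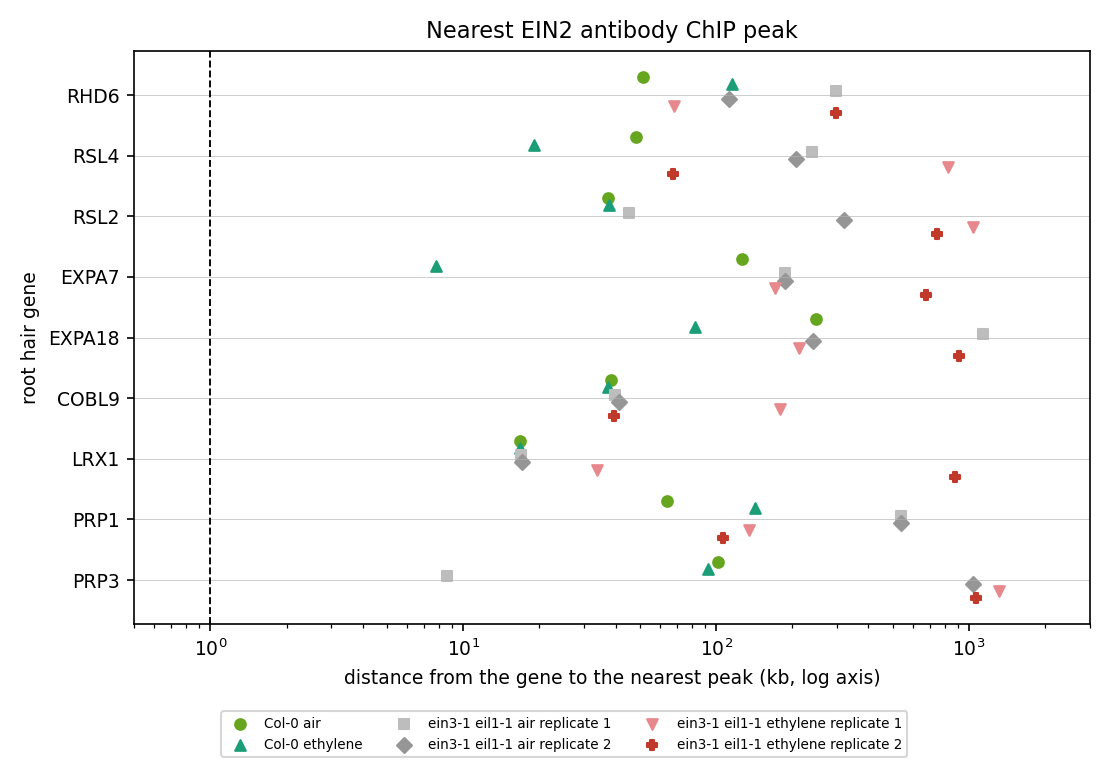
Distance in kb (log axis) from each of the 9 root hair genes to the nearest peak in the 6 ChIP libraries (symbols), with a dashed line at the 1000 bp limit of the flank. No point lies left of that line, and the closest are EXPA7 at 7.78 kb in Col-0 ethylene and PRP3 at 8.60 kb in ein3-1 eil1-1 air replicate 1.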

How the data were processed

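RNA levels are FPKM values that the authors estimated by pooling the 2 libraries of a line. The submitters' processing notes name Cuffdiff 2.2.1 and the build TAIR10. Per the file headers, the deposited columns for each gene are the FPKM, the log2 fold, the test statistic (a score), the p-value and the q-value. The sources used here name no RNA aligner. The K245N table names the line first, per the file headers, so the sign of its log2 folds was reversed to give the line over Col. The 3 Col value columns were not used, since no Col library is among the samples. The depth of the RNA libraries is unknown.

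Per the file headers, the authors ran MACS2 2.1.0.20150603 on each library separately, with a p limit of 0.001 and 119000000 bp as the size of the genome, and both ein3-1 eil1-1 replicates of a treatment shared 1 input. Each deposited peak has a signal (pileup), a ratio to input (fold enrichment) and −log10 values of p and q, per the file headers. The q column was read as named, although a comment line in the same lists states that q values were left uncalculated. One tag was kept per position, which limits the height of strong peaks.

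From these files, calls were counted per list and direction, and peaks were placed at genes by an overlap of at least 1 bp with the gene or its 1000 bp flanks, with python 3.11.15, pandas 2.3.3 and numpy 2.4.6. Placement was tested on simulated data. The limit for a count of 0 uses 3 counts and covers counting error only. Gene positions for peak placement and names were taken from a TAIR10.1 annotation table whose coordinates are not printed. Printed gene positions are those of the deposited tables, 1-based. No test between lines was run. The 9 genes and all lists were chosen with earlier results of these data known.

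The genes named were all 9, of the other root hair lists those listed in all 3 tables and the 12 with the largest absolute log2 fold, of the markers those listed in at least 2 tables (1 of them is not reported here), listed neighbours, and the 3 genes nearest to LRX1 and to PRP3 by fold. The gene family lists and genes named for a single peak or row were chosen after the tables were seen. Promoter motifs and protein identities were planned but not analysed here.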

Additional observations from a re-analysis of the deposited data

Results flagged for a closer look

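EXT12, an extensin of the root hair wall, was called in opposite directions in 2 lines. Its log2 fold over Col was -1.40 in EIN2C-EIN3DB, at 3.34 FPKM, and 1.33 in EIN2-S645A, at 17.2 FPKM, in the authors' deposited tables. It had no row in the authors' deposited table for EIN2C-EIN3DB-K245N. The difference between the lines was not tested, since each line has 1 pooled value, and extensin genes can share reads.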

How the results depend on the processing

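The count of hair genes called higher depended on level and p-value. At a level of at least 5 FPKM it went from 5 to 2 in EIN2C-EIN3DB (EXPA7 and PRP3) and from 2 to 1 in EIN2C-EIN3DB-K245N. With the p-value at its smallest it was 1 in each of the 3 lines, PRP3. At a fold of at least 4 it was 5, 2 and 2. At that fold the other root hair genes called higher went from 5 to 3 in EIN2C-EIN3DB, from 5 to 3 in EIN2C-EIN3DB-K245N and from 13 to 7 in EIN2-S645A, and those called lower from 3 to 1, from 1 to 0 and from 4 to 0. The markers called higher went from 8 to 5, from 7 to 3 and from 8 to 5, and those called lower from 3 to 0 in EIN2C-EIN3DB and from 2 to 1 in EIN2-S645A. These settings are stricter by construction. The count of hair genes with a peak was 0 under the gene body alone, 3000 bp flanks, summits, a −log10 q of at least 5, without replicate 1 or 2, and with peaks of both replicates.

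No paired analysis was possible because the RNA tables pool the libraries and the peak counts come from no test. Leaving out an RNA library and the alternatives for promoter motifs were not run.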
